A study of Homo sapiens with 4 samples.

Results

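CpG-poor protein-coding promoters were examined in nucleosome maps of BE(2)C, an established cell line from a human neuroblastoma in which MYCN is amplified. A promoter counted as CpG-poor when the observed number of CpG dinucleotides within 500 bp on either side of the canonical transcription start site (TSS) was under 0.35 of the number that the C and G content of the same sequence gives. The rule used the hg19 sequence and the GENCODE v44lift37 annotation and no value from the libraries, and it took autosomal genes only. It found 4273 members among 18977 classified autosomal promoters and 20163 protein-coding genes in all, and 4271 members had reads within 1 kb of the TSS in all 4 libraries. The contrast was with 11868 CpG-rich promoters at 0.65 or more, of which 11865 had such reads, and 2836 promoters lay between the limits. Cells had been given a control siRNA (2 libraries) or an siRNA against MYCN (2 libraries), with 80 nM in the labels and a lower final concentration in the study's methods. All cells shared the MYCN amplification, both groups came from 1 line, and the labels do not say whether replicates were separate cultures, so p-values measure the spread between these libraries. Chromatin had been crosslinked with formaldehyde and cut between nucleosomes with micrococcal nuclease (MNase), and fragments of single nucleosomes were sequenced as read pairs (MNase-seq).

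Most vertebrate DNA is poor in CpG because methylated cytosine is readily lost by deamination. CpG islands, which escape methylation, mark the promoters of housekeeping and many developmental genes, and they typically carry an open stretch at the TSS followed by a regular row of nucleosomes. CpG-poor promoters belong mostly to genes used in 1 or a few tissues, depend more on enhancers and on elements such as the TATA box, and are often methylated and covered by nucleosomes where the gene is silent. Most of the gene families described here serve skin, liver, immune or sensory cells.

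The members held a median of 11 CpGs (interquartile range 7 to 17) in the 1001 bp around the TSS, whereas CpG-rich promoters held 85 (69 to 104). The median GC content was 48.2% at the members (range 25.1% to 69.5%) and 65.5% at CpG-rich promoters. At the limit itself, ALDH1A1 was the last promoter inside at 0.349953 and LRRC4C the first outside at 0.350252. The 200 bases upstream of the TSS are shown for members that the results below turn on, in hg19 and 5′ to 3′ on the strand of the gene, with every CpG in capitals. RGS5 (chr1:163172707-163172906, minus strand), DDC (chr7:50633103-50633302, minus strand) and DBH (chr9:136501285-136501484, plus strand) are shown because they belong to the sympathetic lineage list, and EVPLL (chr17:18280892-18281091, plus strand) and C3orf49 (chr3:63804775-63804974, plus strand) because they held a sharply placed nucleosome in every library. HAND1 (chr5:153857788-153857987, minus strand), a CpG-rich promoter of the same sympathetic list without a dyad in the TSS window in any library, is shown for contrast. None of these stretches overlapped an annotated exon, and that of RGS5 lay within the span of the gene, whose longer transcripts start further upstream.
RGS5: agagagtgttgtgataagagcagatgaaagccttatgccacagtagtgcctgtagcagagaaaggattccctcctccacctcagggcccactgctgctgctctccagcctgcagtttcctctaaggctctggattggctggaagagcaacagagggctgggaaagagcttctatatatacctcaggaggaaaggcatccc
DDC: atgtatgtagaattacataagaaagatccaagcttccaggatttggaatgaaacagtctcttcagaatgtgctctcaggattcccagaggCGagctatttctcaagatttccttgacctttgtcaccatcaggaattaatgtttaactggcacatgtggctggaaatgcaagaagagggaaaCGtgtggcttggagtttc
DBH: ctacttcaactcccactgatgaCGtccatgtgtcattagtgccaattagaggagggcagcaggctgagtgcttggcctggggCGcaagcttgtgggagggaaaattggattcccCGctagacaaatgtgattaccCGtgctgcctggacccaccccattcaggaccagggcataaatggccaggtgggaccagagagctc
EVPLL: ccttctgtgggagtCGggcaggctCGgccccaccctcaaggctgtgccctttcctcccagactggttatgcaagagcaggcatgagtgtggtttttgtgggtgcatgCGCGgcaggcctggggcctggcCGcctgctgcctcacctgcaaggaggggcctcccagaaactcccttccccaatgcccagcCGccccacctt
C3orf49: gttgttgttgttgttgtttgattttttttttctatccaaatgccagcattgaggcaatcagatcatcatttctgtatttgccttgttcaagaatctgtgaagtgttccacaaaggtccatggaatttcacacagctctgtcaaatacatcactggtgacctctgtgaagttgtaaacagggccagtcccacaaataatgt
HAND1: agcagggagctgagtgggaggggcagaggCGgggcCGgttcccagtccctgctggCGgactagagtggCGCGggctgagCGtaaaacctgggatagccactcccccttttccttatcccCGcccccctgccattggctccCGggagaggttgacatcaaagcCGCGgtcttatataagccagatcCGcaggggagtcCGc
RGS5 and C3orf49 held 0 CpGs in these 200 bases, DDC held 2, DBH 4 and EVPLL 6, while HAND1 held 12.

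The control libraries held 10527010 and 12120711 called nucleosomes with 147726171 and 242544884 reads, and the knockdown libraries 10677252 and 12178724 nucleosomes with 147370973 and 239257113 reads. Replicate 2 was the deeper library in both groups, so depth moved with the replicate number and not with the group. Replicate 1 had a median of 12 reads per nucleosome and replicate 2 of 18, in the control and the knockdown alike. MYCN, the targeted gene, has a CpG-rich promoter (0.697), and its promoter held 115, 89.5, 118 and 90.9 times the median promoter reads in control 1, control 2, knockdown 1 and knockdown 2. Read counts stopped at 1764 per nucleosome in every library (35 to 70 nucleosomes at that value). The highest at the MYCN promoter was 1605 to 1748, close to that value, but none of its nucleosomes stood at it. Whether these folds are too low was not tested, and they are no measure of copy number. No CpG-poor promoter came near 1764, with highest counts of 89, 122, 85 and 115 within 1 kb of a TSS. These are reads of DNA, so they show the amplified locus in every library and give no check of the knockdown.

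Nucleosomes covered the TSS of CpG-poor promoters about as often as they covered DNA 2 kb away. The stretch between 200 bp before and 50 bp after the TSS, here called the window, counted as a nucleosome-free region (NFR) when no called nucleosome lay at least 80% (118 of 147 bp) inside it. Among the members, 33.0% of windows were empty in control replicate 1 (95% exact Clopper-Pearson interval 31.6% to 34.4%), 29.5% in control replicate 2 (28.1% to 30.8%), 34.6% in knockdown replicate 1 (33.1% to 36%) and 29.8% in knockdown replicate 2 (28.5% to 31.2%). The intervals cover counting error only. Windows of the same size 2 kb upstream were empty at 35.4%, 28.9%, 35.4% and 29.0% of the members in the same order of libraries, and windows 2 kb downstream at 34.9%, 27.6%, 33.8% and 29.7%. The TSS window stood above both of its neighbours in the replicate 2 libraries, below both in control replicate 1 and between them in knockdown replicate 1.

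CpG-rich promoters were empty at 68.8%, 62.3%, 71.4% and 61.2%, far above their own windows 2 kb away (28.5% to 36.3%). The mean share was 31.7% ± 2.48 (SD, n = 4 libraries) at the members and 65.9% ± 4.97 at CpG-rich promoters, a difference of -34.2 points ± 2.55 that held in 4 of 4 libraries (exact sign-flip permutation test over libraries, two-sided, p = 0.125, the smallest that 4 libraries allow). In reads, the window held 1.09, 1.03, 1.06 and 1.02 times the density of the flanks (500 to 1000 bp from the TSS) at the members and 0.507, 0.465, 0.466 and 0.481 times at CpG-rich promoters. The members' window held no fewer reads than the flanks in any library. The difference in the ratio was 0.57 ± 0.024 (exact sign-flip permutation test, two-sided, p = 0.125).

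**Figure D1:**
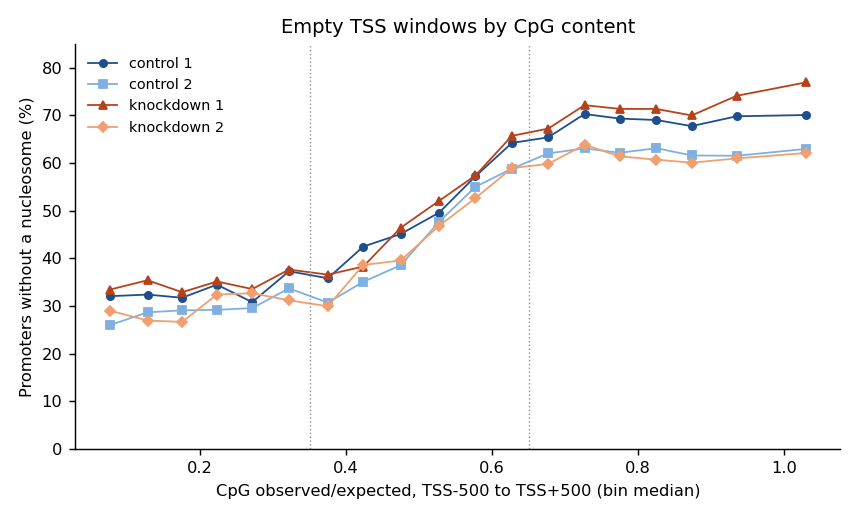
Percentage of promoters without a nucleosome in the TSS window (vertical axis) against CpG observed/expected (horizontal axis, bin medians), with 1 line for each of the 4 libraries and dotted lines at 0.35 and 0.65. Below 0.30 the lines lie at 26.0% to 35.4%, and they rise between the dotted lines to 58.8% to 65.7% in the last bin under 0.65.

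Within the members the share was higher next to the limit than at the lowest CpG content. Promoters under 0.10 (362 members) were empty at 32.0%, 26.0%, 33.4% and 29%, and promoters from 0.25 to 0.30 (799 members) at 30.8%, 29.5%, 33.5% and 32.7%. The 558 members from 0.30 to 0.35 stood at 37.3%, 33.7%, 37.6% and 31.2%, and the 391 promoters just past the limit, from 0.35 to 0.40, at 35.8%, 30.7%, 36.6% and 29.9%. The share from 0.30 to 0.35 was above that under 0.10 in 4 of 4 libraries. The window-to-flank ratio was 1.18, 1.08, 1.07 and 1.09 under 0.10 and lower in each library from 0.30 to 0.35, at 0.985, 0.976, 0.995 and 1.0. A CpG-rich TSS lay within 2 kb of 28 members, of which 32.1%, 32.1%, 35.7% and 35.7% were empty, and the other 4243 stood at 33.0%, 29.4%, 34.6% and 29.8%. Another member's TSS lay within 250 bp of 132 members, and those pairs share nucleosomes.

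Whether a given CpG-poor promoter was empty was poorly repeated between libraries. Of the members, 33.9% held a nucleosome in all 4 libraries, 28.1% were empty in 1 library, 20.7% in 2, 11.4% in 3 and 5.71% in all 4 (244 promoters). The windows 2 kb upstream were empty in all 4 at 6.3% of the members, and those 2 kb downstream at 5.53%. CpG-rich promoters were empty in all 4 libraries at 43.3%. Of the members empty in control replicate 1, 44% were also empty in control replicate 2, where 29.5% of all members were empty, and the knockdown replicates gave 43.6% against 29.8%. The same shares at CpG-rich promoters were 77.7% against 62.3% and 75.7% against 61.2%.

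**Figure D2:**
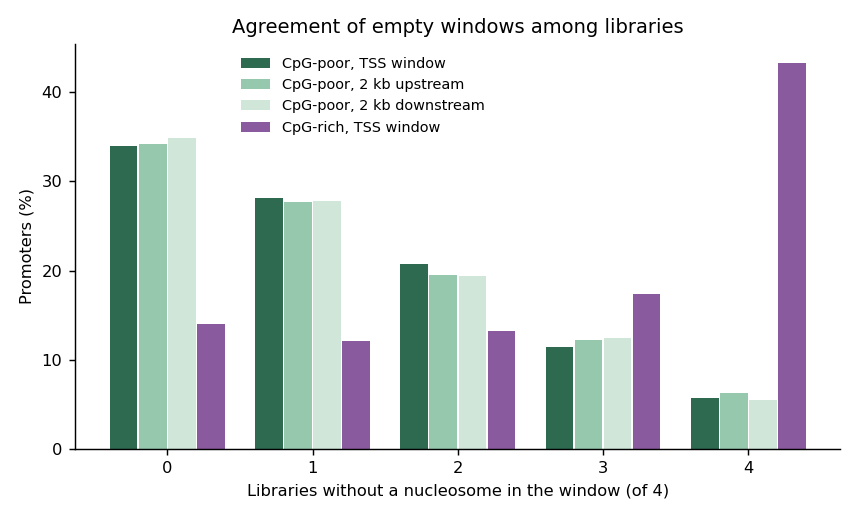
Percentage of promoters (vertical axis) by the number of libraries, out of 4, in which the window held no nucleosome (horizontal axis), for the TSS window and the windows 2 kb upstream and downstream of CpG-poor promoters and the TSS window of CpG-rich promoters. The 3 sets of bars of the CpG-poor promoters follow each other, with 5.71%, 6.3% and 5.53% at 4 libraries, whereas the CpG-rich bars are highest at 4 libraries with 43.3%.

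Most empty windows still held the centre of a nucleosome. Of the members empty in a library, 39.6%, 30%, 39.4% and 32.5% had no dyad, the called centre of a nucleosome, in the window of that library, against 74.2%, 69.6%, 76.1% and 68.9% at CpG-rich promoters. Of the 244 members empty in all 4 libraries, 51 (20.9%) had no dyad in the window in any library. Windows without a dyad in all 4 libraries made up 1.19% of the members, against 1.01% for windows 2 kb upstream and 1.03% for windows 2 kb downstream. At CpG-rich promoters they made up 26.7%. The 244 had a median of 116 reads, averaged over libraries, between 200 and 1000 bp from the TSS, and the 51 had 79.0, whereas all members had 125, so the dyad-free members also had fewer reads around them. The part of read depth in these empty windows was not tested.

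The members empty in all 4 libraries, with or without a dyad in the window, that had the most flanking reads were MIA (a secreted cartilage and melanoma protein), CHST5 (a carbohydrate sulfotransferase), PILRB (an immune receptor), CYP1A1 (a monooxygenase that metabolizes aromatic hydrocarbons), SEPTIN12 (a septin of sperm), IL27 (a cytokine subunit), OR2T3 (an odorant receptor) and KRTAP29-1 (a hair keratin-associated protein). PILRB held 0 reads with a dyad in the window in each library while the stretches 200 to 1000 bp from its TSS, here its flanks, held 146, 217, 143 and 223 reads, in the order control 1, control 2, knockdown 1 and knockdown 2. SEPTIN12 likewise held 0 reads in each window beside 151, 243, 143 and 187 in the flanks, and OR2T3 0 beside 143, 205, 153 and 212. These 3 were bare in both groups. The others had reads at dyads in the window although no nucleosome lay 80% inside. MIA had 34, 70, 16 and 23 such reads, CHST5 23, 35, 22 and 43, and IL27 27, 61, 18 and 28. CYP1A1 had 0, 28, 38 and 53, and KRTAP29-1 36, 57, 0 and 54. OR2T3 and KRTAP29-1 have close relatives in their families, and reads that map equally well to copies were removed by the authors' mapping filter.

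Of the 41 genes of the sympathetic and adrenergic neuroblastoma list, 5 had a CpG-poor promoter, 13 an intermediate and 23 a CpG-rich one. Of all classified promoters with reads in every library, 22.5% were CpG-poor, 14.9% intermediate and 62.6% CpG-rich. RGS5, a regulator of G-protein signalling, held no nucleosome in the window in any library; control replicate 1 had 22 reads at a dyad in the window and the other libraries 0, beside flank reads of 57, 124, 67 and 101. DBH, which turns dopamine into noradrenaline, was empty in 3 libraries and held a nucleosome of 14 reads in control replicate 2 only, beside flank reads of 114, 142, 97 and 147. DDC, the decarboxylase that makes dopamine, held nucleosomes of 17, 27 and 28 reads in control 1, control 2 and knockdown 2, and in knockdown 1 its dyad of 23 reads lay too near the edge to count. SLC18A1, a vesicular monoamine transporter, held a nucleosome in all 4 libraries with 8, 18, 8 and 17 reads. STMN2, a neuronal microtubule regulator, did so with 16, 15, 9 and 9 reads. The 5 genes of 1 lineage therefore ranged from empty in 4 libraries to occupied in 4.

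The average profile of dyads around the TSS had only small peaks at the members. Dyads were counted in 25-bp bins and divided by the mean of the bins 500 to 1000 bp away. The highest bin was 1.45 in control replicate 1 (centred at +62.5 bp), 1.23 in control replicate 2, 1.34 in knockdown replicate 1 and 1.32 in knockdown replicate 2 (each at +87.5 bp). The lowest bin within 300 bp was 0.884, 0.904, 0.876 and 0.869, close to the lowest bins of the flanks (0.912, 0.906, 0.883 and 0.894). A second small peak lay 100 to 125 bp upstream, at 1.21, 1.18, 1.18 and 1.23. CpG-rich promoters reached 2.2, 2.14, 2.22 and 2.12 at +137.5 bp and fell to 0.34, 0.358, 0.297 and 0.354 near the TSS. Counted in reads, without promoters above the 99th percentile of reads, the members' peaks were higher. Their highest bin within 300 bp was 1.68, 1.4, 1.52 and 1.49 times the flanks, against 2.67, 2.51, 2.6 and 2.53 at CpG-rich promoters.

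**Figure D3:**
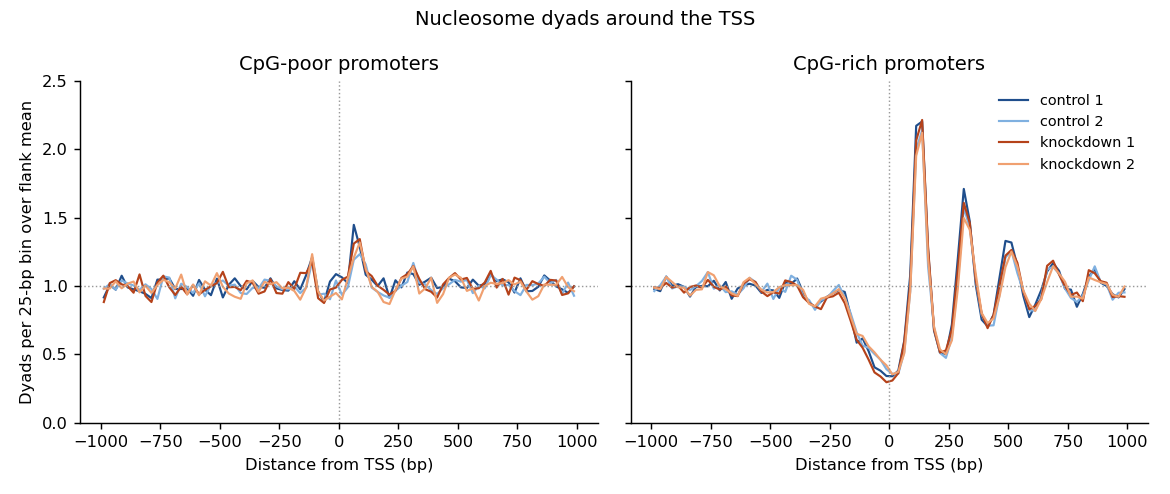
Dyads per 25-bp bin over the mean of the bins 500 to 1000 bp from the TSS (vertical axis) against distance from the TSS in bp (horizontal axis), for CpG-poor (left) and CpG-rich promoters (right), with 1 line for each of the 4 libraries. The CpG-poor lines stay close to 1 apart from small peaks of 1.18 to 1.23 upstream and 1.23 to 1.45 downstream, and the CpG-rich lines show a trough near 0.3 and a row of peaks that starts above 2.

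The small peaks were higher where a TATA box lay at its usual place. The letters TATAAA occurred on the gene's strand 40 to 20 bp upstream of the TSS at 406 members (9.51%), at 1.92% of CpG-rich promoters and at 3.87% of all classified promoters. In these 406, dyads 100 to 125 bp upstream stood at 1.73, 1.68, 1.63 and 1.87 times the flank level, whereas the other 3865 members stood at 1.16, 1.13, 1.13 and 1.17. Dyads 50 to 100 bp downstream stood at 1.79, 1.45, 1.66 and 1.66 with TATAAA and at 1.32, 1.19, 1.29 and 1.22 without it. Both differences held in 4 of 4 libraries, and the ranges were chosen after the profile was seen. Between the peaks, 75 to 25 bp upstream, the values were 0.952, 0.82, 0.934 and 0.798 with TATAAA and 0.959, 0.935, 0.925 and 0.92 without. The share of empty windows was 34.7%, 27.1%, 30.8% and 27.3% with TATAAA and 32.8%, 29.7%, 35% and 30.1% without, a difference of -1.9 points ± 2.64 (exact sign-flip permutation test, two-sided, p = 0.25, adjusted p = 0.5 over 6 motifs). At members under 45% GC it was -4.09 points ± 2.79, with the lower share in 4 of 4 libraries (exact sign-flip permutation test, p = 0.125), and at the others -0.446 points ± 3.52.

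Nucleosome positions at the members were less well repeated than at CpG-rich promoters. The first dyad within 250 bp downstream of the TSS lay at a median of 96 to 100 bp with an SD of 60 to 61.9 bp among members, against 124 to 126 bp and 47.6 to 48.5 bp. Between any pair of libraries, the position of this dyad differed by a median of 29 to 32 bp at the members and 13 to 17 bp at CpG-rich promoters, with means of 31.2 and 15.8 bp over the pairs of libraries, which are not independent. At the members the pairs within a group gave 32 and 31 bp and the pairs of a control with a knockdown library 29 to 32 bp, so positions differed no more between the groups than within them. Positions agreed within 10 bp at 24.1% to 26.7% of the members, against 36.9% to 42.9%.

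Some members held a sharply placed nucleosome all the same. The least fuzzy window nucleosomes among members with one in all 4 libraries and a mean of at least 12 reads were those of ATP6V1G2 (a proton pump subunit of neurons) and its readthrough gene ATP6V1G2-DDX39B, which are 1 nucleosome, and of RPEL1, FABP12 (a fatty acid binding protein), EVPLL (an envoplakin-like gene), C3orf49 and 2 genes without a symbol. The dyad of C3orf49 lay at -44, -46, -44 and -48 bp from the TSS with 19, 31, 20 and 22 reads and a mean fuzziness of 25.2 bp. That of FABP12 lay at -77, -80, -81 and -82 bp with 15, 20, 6 and 11 reads. In EVPLL it lay at -13, -5, -7 and 4 bp with 15, 26, 11 and 27 reads, and in RPEL1 at -26, -17, -19 and -10 bp with 15, 27, 10 and 13 reads. The dyads of these 4 genes lay within 4 to 17 bp of each other over the libraries of both groups, and those of a gene without a symbol, ENSG00000284895, within 28 bp. The genes were picked for low fuzziness, so their fuzziness is a description. The lowest fuzziness came at the lowest read count for ATP6V1G2, RPEL1, EVPLL and the 2 genes without a symbol, but not for FABP12 and C3orf49. The ATP6V1G2 nucleosome had 13.9 bp at 8 reads in control 1 and 29.96 bp at 17 reads in control 2. RPEL1 had 18.37 bp at 10 reads in knockdown 1 and 29.99 bp at 27 reads in control 2. The part of low read counts in this ranking was not tested.

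Nucleosomes at the members held more reads than at CpG-rich promoters and were fuzzier. The median promoter's mean read count per nucleosome within 1 kb was 1.06, 1.09, 1.04 and 1.08 times the autosomal mean at the members and 0.929, 0.963, 0.921 and 0.97 times at CpG-rich promoters, a difference of 0.12 ± 0.0071 in 4 of 4 libraries. Fuzziness, the SD in bp of read midpoints around the called dyad, averaged 34.9, 36.3, 34.9 and 36.2 bp at the members and 32.6, 34.8, 32.6 and 34.8 bp at CpG-rich promoters. The difference was 1.86 bp ± 0.468, larger in replicate 1 (2.3 and 2.22 bp) than in replicate 2 (1.49 and 1.42 bp). Both contrasts had p = 0.125 in the exact sign-flip permutation test (two-sided). The members' fuzziness was close to the autosomal mean of 34.6, 36.1, 34.7 and 36.1 bp.

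The read count of the members' nucleosomes was higher at high GC content. Their empty share was lower in the highest GC band than in the lowest. At the 963 members under 40% GC, nucleosomes held 0.834, 0.819, 0.835 and 0.831 times the autosomal mean, and at the 466 members at 60% GC or more 1.27, 1.32, 1.23 and 1.27 times. The empty shares of these bands were 39.8%, 29.6%, 39% and 32.2%, and 29.6%, 25.8%, 30.3% and 28.5%, lower at high GC content in 4 of 4 libraries. The bands between them did not fall steadily in replicate 2. From 40% to 60% GC, control replicate 2 ran 27.8%, 30.4%, 33.3% and 28.4%, and knockdown replicate 2 ran 28.7%, 28.9%, 29.7% and 29.6%. The part of read depth in this difference was not tested. Against nucleosomes 10 to 50 kb from the same TSS, the read count ran from 0.921 to 0.944 in the lowest band and from 1.0 to 1.04 in the highest. The end bands thus differed less on the local scale. From 50% to 55% GC the local values were 1.07 to 1.08, above those of the highest band in each library, so they did not rise throughout. Where both classes had the same GC content, from 50% to 55% (747 members and 751 CpG-rich promoters), 30.8%, 33.3%, 34.9% and 29.7% of the members were empty, against 79.1%, 73.8%, 82% and 72.8%. The read count per nucleosome was then 1.24, 1.31, 1.18 and 1.27 against 0.836, 0.883, 0.859 and 0.906. Over all promoters from 45% to 55% GC the classes differed by 0.337 in the relative read count and by -44.2 points in the empty share, so both contrasts were wider there than over all GC contents.

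**Figure D4:**
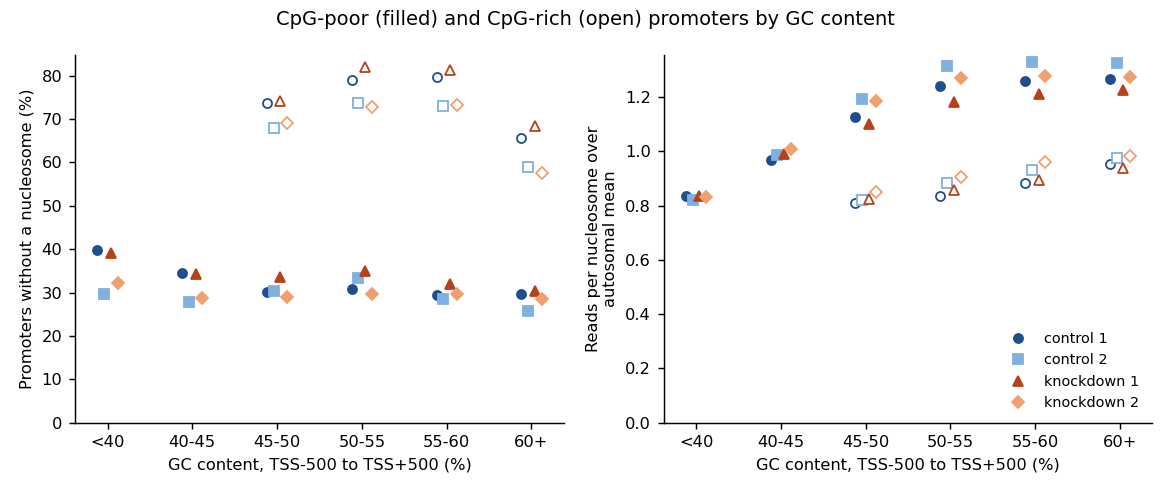
Promoters without a nucleosome in percent (left) and read count per nucleosome over the autosomal mean (right) against GC content within 500 bp of the TSS, for bands with at least 100 promoters, with 1 symbol per library, filled for CpG-poor and open for CpG-rich promoters. The filled symbols lie between 25.8% and 39.8% on the left, below every open symbol, and run from 0.819 to 1.33 on the right.

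Within the members, called nucleosomes lay on the more GC-rich bases. Around dyads within 800 bp of the TSS, the central 147 bp had a GC content of 50.5%, 49.3%, 50.3% and 49.2%, and the bases 80 to 110 bp from the dyad had 44.8%, 44.9%, 44.8% and 44.7%. The step was 5.63, 4.37, 5.53 and 4.49 points at the members and 5.09, 3.45, 4.78 and 3.37 points at CpG-rich promoters. Called nucleosomes covered runs of 8 or more A or T less often than other bases. There were 2926 such A-tracts within 800 bp of the members' TSSs, and a nucleosome covered the centre of 28.2%, 47.9%, 30.1% and 46.6% of them, whereas nucleosomes covered 59.6%, 64.6%, 59.9% and 64.8% of all positions in the same stretches. The difference, tracts minus all positions, was -22.8, -11.3, -21.3 and -10.6 points at members under 45% GC and -38.3, -21.5, -36.6 and -25.3 points at the others. It was larger in size in the shallower replicate 1 of both groups. The part of MNase cutting and of depth in the GC step and in the cover of A-tracts was not tested. CpGs themselves were covered slightly more often than the average position, at 66.8%, 69.1%, 66.7% and 69.1%.

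A-tracts of 8 in the TSS window went with empty windows. The run AAAAAAAA, or TTTTTTTT on the other strand, occurred in the window of 291 members (6.81%), 2.52% of CpG-rich and 3.86% of all classified promoters. Those members were empty at 46.4%, 36.1%, 46% and 34%, and the members without the run at 32%, 29%, 33.7% and 29.5%. The difference was 9.58 points ± 4.57, with the higher value in 4 of 4 libraries (exact sign-flip permutation test, two-sided, p = 0.125, adjusted p = 0.375 over 6 motifs). It was 8.18 points ± 3.6 at members under 45% GC and 10.3 points ± 5.58 at the others. The members with the run held medians of 101, 172, 103 and 169 reads within 1 kb, against 126, 198, 124 and 193, so fewer reads moved with it over all GC contents. To show such a run, the 200 bases upstream of the TSS are given for OR2T3 (chr1:248636452-248636651, plus strand), which had no dyad in the window in any library, with the A-tract in capitals.
OR2T3: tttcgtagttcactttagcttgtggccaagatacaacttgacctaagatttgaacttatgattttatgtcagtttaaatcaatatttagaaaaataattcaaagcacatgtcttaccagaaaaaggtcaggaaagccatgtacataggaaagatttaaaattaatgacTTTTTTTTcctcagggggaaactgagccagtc
The tract was 8 bases long. OR2T3 has close relatives in its family, so its reads are uncertain. Its annotated gene spans only chr1:248636652-248637608, and whether transcription starts at this TSS was not tested. C3orf49, printed above, holds a run of 10 T bases and nevertheless held a nucleosome in the window in every library.

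The other motifs went with smaller differences. CCAAT or ATTGG, the CCAAT box, occurred at 31.7% of the members and 31.3% of CpG-rich promoters (31.9% of all), with a difference in the empty share of 2.36 points ± 0.78, higher in 4 of 4 libraries, and the members with it had a lower median GC content (45.3% against 49.9%). At members under 45% GC the difference was 1.06 points ± 1.22, and at the others 2.76 points ± 2.17, higher in 3 of 4 libraries. The binding site of GATA factors, searched as AGATAA on both strands, occurred at 13.6% of the members and 2.3% of CpG-rich promoters (5.46% of all), with a difference of 0.802 points ± 2.15, which was 2.07 points ± 1.63 at members under 45% GC and -2.66 points ± 3.07 at the others. TGACTCA or TGAGTCA, an AP-1 site, occurred at 7.26% and 1.42% (2.99% of all), with a difference of -0.19 points ± 0.935. CACGTG, the E-box bound by MYC proteins, reads the same on both strands and contains a CpG, and it occurred at 3.63% of the members and 9.46% of CpG-rich promoters (7.8% of all). The 155 members with CACGTG were empty at 33.5%, 32.9%, 31.6% and 28.4%, a difference of -0.0987 points ± 2.87 from the others. Over all GC contents the differences of the last 3 motifs were smaller than their spread over libraries, and the adjusted p over the 6 motifs was 0.375 for CCAAT and 0.75 to 1.0 for the last 3 (exact sign-flip permutation test).

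The members were gathered into 20 gene lists, which held 1017 of the members (23.8%). In 19 of the lists most genes were CpG-poor. Olfactory receptors were the largest, with 385 of 403 genes CpG-poor and empty shares of 40.3%, 31.9%, 43.6% and 33.5%, and 33 of the 385 were empty in all 4 libraries. Their nucleosomes held 0.895, 0.858, 0.876 and 0.887 times the autosomal mean at a median GC content of 39.5%. Like OR2T3, OR2F2 (chr7:143632326-143633279) and OR4D5 (chr11:123810324-123811280) have short annotated spans, whereas those of OR4M1 and OR8B8 are longer. Whether transcription starts at the annotated TSSs of these receptors, or of the bitter taste receptors below, was not tested. Keratin-associated proteins (86 of 94) were empty at 39.5%, 26.7%, 32.6% and 33.7%, and keratins (41 of 55) at 36.6%, 22%, 26.8% and 22%. Beta-defensins (39 of 40), antimicrobial peptides of epithelia, stood low at 25.6%, 20.5%, 28.2% and 20.5%, and 17 of the 39 held a nucleosome in all 4 libraries. Late cornified envelope and SPRR proteins (29 of 30) stood at 24.1%, 34.5%, 24.1% and 17.2%.

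Immune and hepatic genes made up the next lists. Interleukins and chemokines (60 of 79) were empty at 45%, 35%, 45% and 30%, and immune receptors (109 of 155) at 35.8%, 29.4%, 33.9% and 28.4%. Type I interferons (16 of 16) stood at 56.2%, 31.2%, 43.8% and 50%, with read counts per nucleosome of 0.712, 0.589, 0.708 and 0.625 times the autosomal mean. Plasma proteins of the liver (40 of 45) were empty at 30%, 27.5%, 30% and 32.5%, cytochrome P450 enzymes (34 of 56) at 29.4%, 38.2%, 35.3% and 29.4%, and UDP-glucuronosyltransferases and sulfotransferases (29 of 34) at 41.4%, 31%, 37.9% and 44.8%. Digestive enzymes (27 of 31) ranged from 29.6% to 55.6%, striated muscle proteins (25 of 41) from 28% to 36%, and bitter taste receptors (24 of 24) from 20.8% to 37.5%. Pituitary and gut hormones (22 of 33) ranged from 22.7% to 45.5%, saliva and milk proteins (17 of 19) from 23.5% to 52.9%, S100 proteins (12 of 15) from 16.7% to 33.3%, glutathione S-transferases and alcohol dehydrogenases (11 of 21) from 9.09% to 27.3%, and globins (6 of 10) from 16.7% to 50%. Most lists overlapped in their ranges over libraries, and in lists under 30 members 1 promoter moved the share by over 3 points, so no order among the small lists could be read. S100 proteins held the most reads per nucleosome of the 20 lists in each library, 1.49, 1.44, 1.4 and 1.45 times the autosomal mean, and also the highest median GC content (57.2%). All members from 55% to 60% GC stood at 1.26, 1.33, 1.21 and 1.28.

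**Figure D5:**
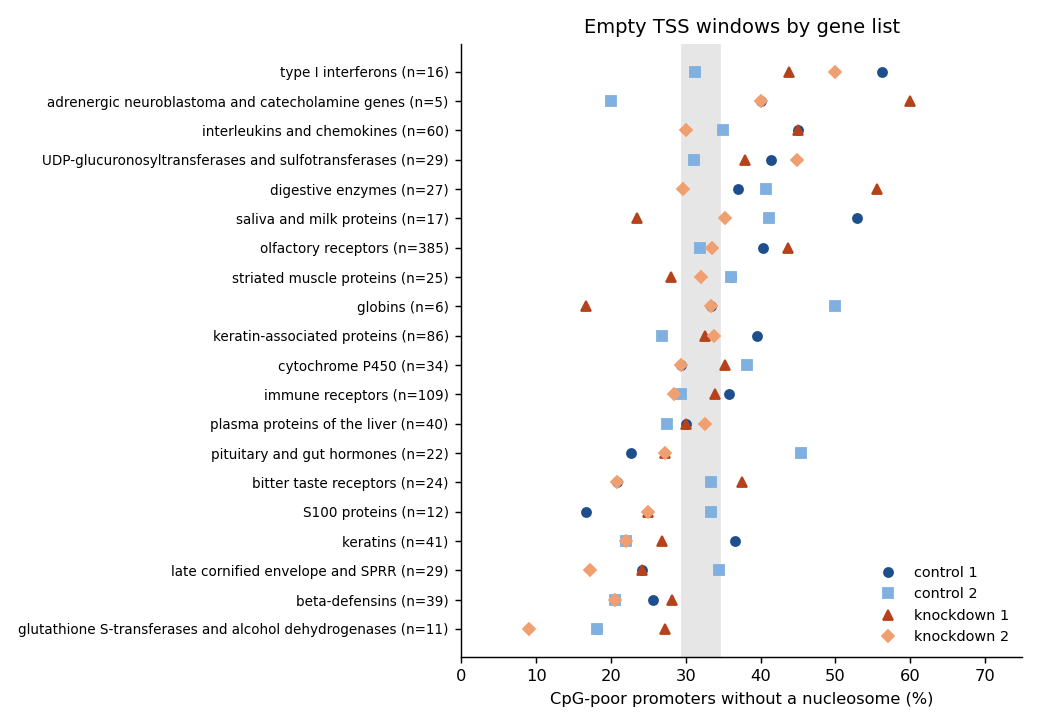
Percentage of CpG-poor promoters without a nucleosome in the TSS window (horizontal axis) for each of the 20 gene lists (vertical axis, with the number of CpG-poor members), with 1 symbol per library and a grey band from 29.5% to 34.6% for all members. The symbols of lists with 30 or more members lie between 20.5% and 45%, and those of lists under 30 members scatter from 9.09% to 60%.

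Single promoters of these lists varied between libraries. APOA5, an apolipoprotein of the liver, held a window nucleosome in all 4 libraries with 16, 31, 16 and 27 reads, and SERPINC1 (antithrombin) with 22, 45, 20 and 47. KRTAP10-4 held one with 20, 30, 18 and 30 reads, LALBA (the milk protein alpha-lactalbumin) with 18, 21, 16 and 21, and TNNC2 (skeletal troponin C) with 21, 36, 28 and 29. These windows were filled in both groups, and within each group the deeper replicate 2 had the higher count at each of the 5 genes. PRSS3, a trypsinogen, held none in any library, with 0, 0, 17 and 26 reads at dyads in the window. CYP2A13 held one in control replicate 1 only, with 29 reads, while the other libraries had 28, 20 and 28 reads at dyads in the window. The authors' mapping filter removed reads that map equally well to copies. Its part in the windows of KRTAP10-4, PRSS3 and CYP2A13 was not tested.

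The members' averages differed between control and MYCN knockdown by less than the spread between replicates. The share of empty windows was 31.2% ± 2.5 (SD, n = 2) in the control and 32.2% ± 3.34 (n = 2) after knockdown, a difference of 0.972 points (exact permutation test, two-sided, p = 0.667, with 0.333 the smallest that 2 against 2 allows). Same-numbered libraries differed by 1.57 and 0.375 points. The window-to-flank ratio was 1.06 ± 0.0384 and 1.04 ± 0.0295, the relative read count 1.07 ± 0.0272 and 1.06 ± 0.0304, and fuzziness 35.6 ± 0.978 and 35.5 ± 0.928 bp, each with p = 0.667 in the same exact permutation test. The same-numbered libraries differed by -0.0255 and -0.013 in the ratio, -0.014 and -0.00947 in the read count and -0.0175 and -0.0888 bp in fuzziness, so the sign was shared by both numbers in all 4 measures. The gap between CpG-poor and CpG-rich promoters in the empty share was 0.217 points smaller in size after knockdown (exact permutation test, two-sided, p = 1.0). In all 4 measures the 2 groups overlapped.

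Windows that filled and windows that emptied after knockdown were about equal in number. Both knockdown libraries held a nucleosome at 132 (21.3%) of the 620 members that were empty in both controls, beside 5.25% of such windows over all protein-coding promoters. Both controls held one at 154 (24%) of the 643 members that were empty in both libraries of the knockdown, beside 5.64% over all. CpG-rich promoters gave 212 of 6345 (3.34%) and 225 of 6418 (3.51%). Counted over all windows instead, 3.09% of the members gained and 3.61% lost a nucleosome, beside 2.21% and 2.41% of all promoters, so the size of the excess depended on the denominator. The members' shares were higher than the background in both directions, as was the share of empty windows that replicates did not repeat, whose part in these counts was not tested. Both counts depended on every library, since a condition falls away when 1 is left out: the gains were 400 without control replicate 1, 446 without control replicate 2, 284 without knockdown replicate 1 and 224 without knockdown replicate 2. The losses were 297, 256, 453 and 475 in the same order. With 50% of the nucleosome inside the window as the criterion, 48 members gained and 44 lost a nucleosome.

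The gained windows with the most reads were those of ENSG00000283952 (a gene without a symbol on chromosome 1), SPDYE14, SLC5A4 (a glucose sensor of the sodium-glucose transporter family), CCL1 (a chemokine) and EPPIN-WFDC6. At ENSG00000283952, reads at dyads in the window were 20 and 36 in the controls and 54 and 77 after knockdown. CCL1 held nucleosomes of 23 and 29 reads at -11 and 3 bp in the knockdown libraries and none in the controls, yet the controls had 48 and 62 reads at dyads in the window against 50 and 48, so the reads in its window did not come and go with the called nucleosome. EPPIN-WFDC6 likewise had 24 and 31 against 23 and 34 reads. The lost windows with the most reads were those of OR4M1, EDDM3A, ADIPOQ (adiponectin), KRT74 and BPI (a bactericidal protein of neutrophils). At ADIPOQ the reads at dyads in the window were 60 and 44 in the controls and 29 and 34 after knockdown. KRT74, a keratin of the hair root sheath, had nucleosomes of 28 and 44 reads at -68 and -21 bp in the controls, and the knockdown libraries had 26 and 29 reads at dyads in the window. BPI nucleosomes had 27 and 42 control reads, and 0 and 30 reads at dyads in the window remained after knockdown. All 10 of these windows had reads at dyads in both controls and at least 1 knockdown library. SPDYE14 and OR4M1 belong to families of near-identical copies, and their reads are uncertain.

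No member's reads changed past the threshold. Reads between 2 kb before and 1 kb after each TSS were tested with edgeR's quasi-likelihood test over 20106 promoters with Benjamini-Hochberg adjustment, and 0 were called (0% of all promoters, and 0 of 4272 members) in the fit by group and also with the replicate number as a block (0% again). At an unadjusted p under 0.05 there were 155 members (3.63%), 78 up and 77 down, beside 3.15% of all promoters. With the replicate block there were 302 (7.07%) beside 5.84% of all, 134 up and 168 down, and adding a correction for GC content to the block gave 267 (6.25%, beside 5.34% of all), 71 up and 196 down. DESeq2 called 0 members, with 57 (1.33%, beside 1.04% of all) at an unadjusted p under 0.05. The median log2 change of the members was -0.007 and that of all promoters -6.82e-05.

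The members with the smallest p in a direction shared by both replicate numbers were OR8B8, ANKS4B, IFNG (interferon gamma) and MBL2 (mannose-binding lectin of the liver) among those with more reads after knockdown, and BAIAP2L2, C4A, ITGAD (a leukocyte integrin) and MISP (a mitotic spindle protein) among those with fewer. Control reads at OR8B8, an odorant receptor, numbered 147 in replicate 1 and 206 in replicate 2, and knockdown reads 200 and 332, a log2 change of 0.61 (edgeR adjusted p = 0.999, and 0.125 with the replicate block). IFNG held 94 and 238 reads against 151 and 302, a log2 change of 0.50 with an adjusted p of 0.999 in edgeR. BAIAP2L2 held 267 and 423 against 165 and 323, a log2 change of -0.48 (edgeR adjusted p = 0.999, and 0.477 with the block). C4A held 247 and 297 against 127 and 260, and its near-identical neighbour C4B makes its reads uncertain. In the fit without knockdown replicate 2, 1 promoter was called, that of ANGPT2 (angiopoietin 2), a member named here after its value was seen. Its promoter had 122 and 246 control reads and 47 and 220 knockdown reads, with a log2 change of -1.51 and an adjusted p of 0.00135 in edgeR without that library and -0.48 and 0.999 with it. Without it the knockdown is 1 library, whose spread is taken from the controls.

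Small changes in reads followed GC content within the members. The median log2 change after knockdown was 0.067 at the 963 members under 40% GC, of which 64.1% were above 0, and 0.028 at the 742 members from 40% to 45%. It was -0.009 from 45% to 50%, -0.028 from 50% to 55%, -0.054 from 55% to 60% and -0.057 at the 466 members at 60% or more, of which 33.0% were above 0. At CpG-rich promoters it was 0.050 from 45% to 50% GC, 0.041 from 50% to 55%, 0.021 from 55% to 60% and -0.006 at 60% or more, so in the bands from 45% to 60% the medians of the classes had opposite signs. GC content thus moved with the sign of the change at the members, and its part in the change was not tested.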

How the data were processed

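MNase-seq libraries of control siRNA (2) and MYCN siRNA (2) BE(2)C cells were grouped by sample title. The authors trimmed reads with Trim Galore 0.4.4, aligned them to hg19 with Bowtie2 2.2.4, kept proper pairs of good mapping quality, removed PCR duplicates and called nucleosomes in each library with Genetrack. The submitters' processing notes also name CASAVA 1.9. The deposited read count is a whole-number count of read-pair midpoints per called nucleosome, taken as unscaled and with a ceiling of 1764 in every library, and the authors dropped nucleosomes with fewer than 6 reads, so a nucleosome can be missing from a shallow library for lack of reads. The deposited fuzziness is the SD in bp of midpoints about the dyad, as the authors computed it. Coordinates are GRCh37.

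Per promoter, the nucleosomes, reads and fuzziness were summed or averaged per library with Python 3.11.15. A promoter needed reads within 1 kb in all 4 libraries, and the window-to-flank ratio left out promoters above the 99th percentile of reads. Group values were compared by exact permutation and class contrasts by exact sign flips over libraries. Promoter counts (mean of at least 10) were tested with edgeR 4.0.16 and, as an alternative, DESeq2 1.42.0 (R 4.3.3), with adjusted p under 0.05 called. The scripts were tested on simulated data. Same-numbered libraries share a number in the titles, and their deviations from the group means correlated (r = 0.23 over 4271 members), but only 2 such pairs exist. Named genes were the 8 empty in all 4 libraries with the most flank reads (200 to 1000 bp), the 8 least fuzzy, the 5 gained and 5 lost with the most reads, the 4 smallest p in each direction, and 2 per list by flank reads, among members between the 10th and 90th percentile of flank reads. Not every gene so chosen is described. The genes of the sympathetic list, HAND1 and ANGPT2 were named outside this rule. The members and lists were chosen with earlier results of these data known.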

Additional observations from a re-analysis of the deposited data

How the results depend on the processing

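The 12 main results were recomputed under 120 alternatives, of which 98 left the value within the spread between replicates (or, for counts, within 1.5 times), 22 moved it beyond that, and 0 reversed a contrast between the classes. Some of the 98 could hardly move. The mean of same-numbered differences equals the difference of group means, and the equal-depth lists kept the deposited fuzziness. Without the filter on promoters there were 4273 members instead of 4271. Knockdown differences that changed sign within the spread were counted among the 98. The cause of the moves was not tested except where fewer conditions had to be met. Between classes, restricting both to 45% to 55% GC gave -44.2 points in the empty share, 0.62 in the window-to-flank ratio, 0.337 in the relative read count and 2.57 bp in fuzziness. Placing the TSS at the most upstream transcript gave -25.6 points in the empty share. The difference in relative read count was 0.116 with the limit at 0.30, 0.112 at equal depth, 0.144 without multi-copy families and 0.13 relative to nucleosomes 10 to 50 kb away. With 1 library left out at a time the class contrasts ranged from -35.2 to -33.3 points, 0.562 to 0.581, 0.121 to 0.126 and 1.71 to 2.0 bp. The knockdown differences then ranged from -1.39 to 3.34 points, -0.0464 to 0.0079, -0.0333 to 0.0098 and -0.745 to 0.639 bp. Depth goes with the replicate number, so leaving out 1 library also unbalances depth between the groups. With 50% of the nucleosome in the window, 48 members gained and 44 lost a nucleosome. Leaving out 1 library gave 224 to 446 gains and 256 to 475 losses, and 0 to 1 members called by edgeR, the 1 being ANGPT2 without knockdown replicate 2.

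As a replicate block, the mean of the same-numbered differences was 0.972 points in the empty share, equal to the difference of the group means, -0.0192 ± 0.00886 in the window-to-flank ratio and -0.0117 ± 0.00321 in the read count (SD of the 2 pairs), and single same-numbered pairs gave a mean of 690 gains and 731.5 losses. The replicate block called 0 members in edgeR, as did the other edgeR and DESeq2 alternatives apart from the 1 named. The median nucleosome held 12 or 18 reads, so depth limits whether a single empty window can be told from a thinly read one.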
